A study of Mus musculus with 2 samples.

Results

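The glutathione transferases Gsta1, Gsta2, Gsta4, Gstp1, Gstp2, Gstm5 and Gstt1 and the cystine transporter Slc7a11 are 8 of the 4197 genes in the table of the series, chosen by their symbols with the values of this comparison known. Their levels in GFP positive and GFP negative cells are therefore descriptions and carry no test. Of the 8 genes, 5 were higher in GFP positive cells (Gsta1, Gsta2, Gsta4, Gstp1 and Gstp2), as were 43.6% of all genes of the table, and 3 were lower (Gstm5, Gstt1 and Slc7a11), as were 56.4%. Centred on the median listed gene, Gstm5 turned to higher. The alpha class copies Gsta1 and Gsta2 were close to unread in GFP negative cells, with 7 and 2 reads. Gsta4 and Gstp1 were per kilobase of exon among the most abundant of the listed transcripts in GFP positive cells, and Slc7a11, which brings in the cystine needed to make glutathione, was 5.78-fold lower there.

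Glutathione is a small thiol peptide that cells build from glutamate, cysteine and glycine, and it is their main soluble reducing agent. Glutathione S-transferases join it to reactive electrophiles, which makes these soluble and ready for export, and the alpha, mu, pi and theta classes differ in the compounds they accept. Slc7a11, also called xCT, is the light chain of an exchanger that takes up cystine and releases glutamate, with Slc3a2 as its heavy chain. Pigment cells handle reactive quinones while they make melanin, and cysteine enters the red and yellow form of that pigment. A mouse Slc7a11 mutation, subtle gray, lowers this pheomelanin.

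The series set neonatal intermediate cells, the pigment cells of the stria vascularis in the cochlear lateral wall, against the remaining lateral wall cells. Lateral walls came from mice at postnatal day 0 in which Cre recombinase under Wnt1 control switched on a fluorescent reporter, and trypsin-dissociated cells were sorted by that fluorescence. The GFP positive sample has the genotype wnt1CRE::Ai3 and the GFP negative sample wnt1CRE::Ai4, and the protocol writes the mice as wnt1CRE::EYFP. Because Wnt1-Cre marks neural crest derivatives in general, the positive gate is not limited to intermediate cells. The GFP negative cells are defined by the lack of the reporter.

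The labels give 1 sample per group. The deposited GFP positive value is the authors' mean of 2 libraries, called A and B below, that the table does not name, and whether the GFP positive sample of the labels is among them is not known. Reads on the genes of the table came to 12114107 in the GFP negative library, 17120511 in A and 16584559 in B. Of the cell type markers, 8 of 8 pigment cell, 3 of 3 strial intermediate cell and 6 of 6 Schwann cell and glial markers were higher in GFP positive cells. All listed markers of fibrocytes, cartilage, marginal cells, red blood cells, macrophages, endothelium and pericytes were lower. The authors' deposited table ends at an adjusted p of 0.00986 and holds no log2 ratio below 1 in size. Genes outside these limits have no value here.

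Several of these genes are close copies, and the sequences show how far reads can tell them apart. Gsta1 and Gsta2 lie in 1 cluster on chromosome 9 in GRCm38, where the order is Gsta4, Gsta1, Gm3776, Gm10639 and Gsta2. Gm3776, a predicted protein-coding gene next to Gsta1, is also in the table. Over the coding sequence Gsta1 and Gm3776 differ at 2 of 669 aligned bases, and Gsta1 and Gsta2 at 13 of 666. The stretch below, from coding base 449 to 508 of Gsta1, was chosen because it holds the most differing bases of any 60-base stretch without a gap, and capitals mark the 5 columns that differ among these copies.
Gsta1: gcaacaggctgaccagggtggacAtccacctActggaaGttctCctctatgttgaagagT
Gm3776: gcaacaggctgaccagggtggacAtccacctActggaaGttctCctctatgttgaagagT
Gsta2: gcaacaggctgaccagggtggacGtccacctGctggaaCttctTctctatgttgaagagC
Gsta2 stands apart at all 5 columns, while Gsta1 and Gm3776 are the same throughout the stretch.

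Gstp1 and Gstp2 are neighbours on chromosome 19, followed by Gstp3, which is not in the table. Their coding sequences differ at 12 of 630 aligned bases. Of these, 6 fall within the first 60 coding bases, shown here with the differing bases in capitals.
Gstp1: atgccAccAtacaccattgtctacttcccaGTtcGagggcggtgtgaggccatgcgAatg
Gstp2: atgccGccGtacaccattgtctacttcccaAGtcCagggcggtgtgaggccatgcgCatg
Beyond these copies the coding sequences are far apart, with 66.8% identity between Gsta1 and Gsta4 and 55.2% between Gsta1 and Gstp1.

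Windows of 50 bases along the GENCODE M21 coding transcripts give the same picture. In Gsta1 10.3% of the windows occur in no transcript of another gene, in Gm3776 7.52% and in Gsta2 52.6%. The share is 49.0% in Gstp1 and 49.6% in Gstp2, 87.8% in Gstm5 and 98.2% in Slc7a11. In Gsta4 and Gstt1 all windows are their own. With windows of 100 bases the lower shares become 18.2% for Gsta1, 14.5% for Gm3776, 75.2% for Gsta2, 61.6% for Gstp1 and 57.8% for Gstp2. Neither the read length nor the handling of reads with several matches is stated in the sources used, so the split between Gsta1, Gsta2 and Gm3776, and that between Gstp1 and Gstp2, is uncertain, while Gsta4 and Gstt1 share no window with other transcripts.

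**Figure D1:**
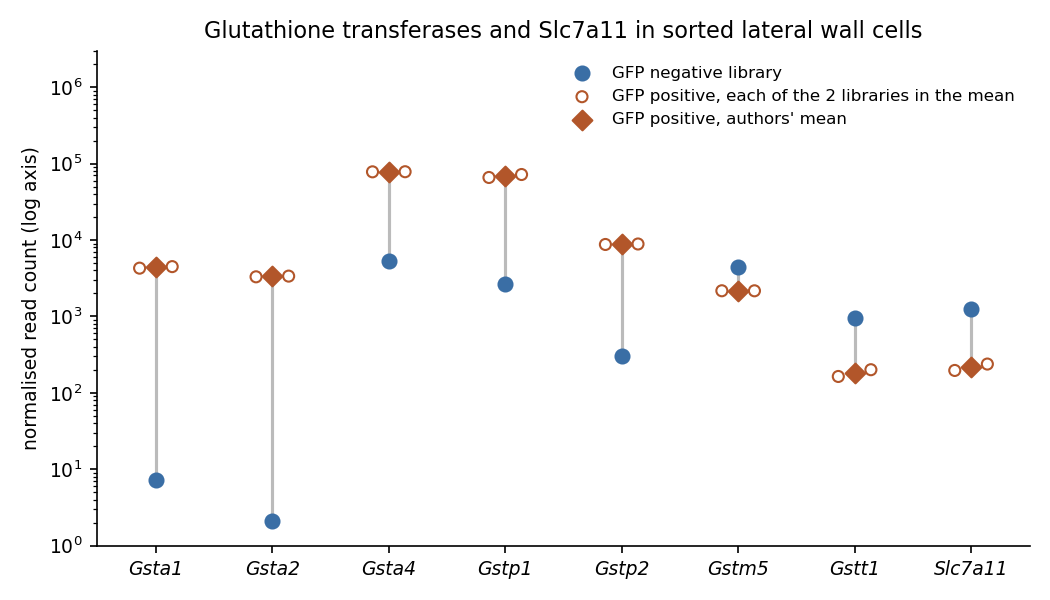
Normalised read count of the 8 genes on a log axis, with the GFP negative library as blue circles, the authors' GFP positive mean as diamonds and the 2 libraries of that mean as open circles. For every gene both open circles lie on the same side of the blue circle, and the widest gaps are those of Gsta1 and Gsta2.

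Gsta1, an alpha class transferase known as an inducible liver enzyme, had a normalised read count of 7.31 in the GFP negative library, and of 4284 in library A and 4488 in library B. Gsta2, the same kind of enzyme, had 2.09 in the GFP negative library, 3300.3 in A and 3371 in B. Both GFP positive libraries thus stood far above the GFP negative one and close to each other. The ratio of the authors' mean to the GFP negative value was 600.1 for Gsta1, with a 95% exact binomial counting interval of 291 to 1493. For Gsta2 it was 1597, with an interval of 442 to 13192, wide because only 2 GFP negative reads stand behind it. Intervals here cover counting error only, not the spread between animals or sorts.

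Gm3776 showed the same pattern as its neighbours, with 1 GFP negative read against 2093 reads in A and 1843 in B, a ratio of 1823 (327 to 72034). Summed over Gsta1, Gsta2 and Gm3776, which removes the question of how reads were split among them, 10 GFP negative reads stood against 10242 in A and 9632 in B. The summed ratio was 922 (501 to 1923). Gm10639, which has no value here, shares 50-base windows with each of these genes, so reads assigned to it or dropped are outside the sum. Within the sum Gsta1 held 44.9% of the reads in A and 46.2% in B, Gsta2 34.6% and 34.7%, and Gm3776 20.4% and 19.1%. With 10 reads in all, the GFP negative library gives no usable split.

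Gsta4, the alpha class enzyme that conjugates the lipid peroxidation product 4-hydroxynonenal, stood at 5348 in the GFP negative library, 78076 in A and 78325 in B. It was 14.6-fold higher in GFP positive cells (14.2 to 15.04). Unlike Gsta1 and Gsta2 it was well read on the GFP negative side, where 5122 reads fell on it. On this scale of normalised counts its GFP negative value was 6.84% of the GFP positive mean, against 0.167% for Gsta1 and 0.0626% for Gsta2.

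Gstp1, the main pi class transferase, stood at 2665 in the GFP negative library, 65865 in A and 72012 in B, and was 25.9-fold higher in GFP positive cells (24.9 to 26.9). Its copy Gstp2 stood at 307 in the GFP negative library, 8746 in A and 8873 in B, which is 28.7-fold higher (25.6 to 32.3). Summed, the copies were 26.2-fold higher (25.2 to 27.2), so the result for this pair does not hang on the split between Gstp1 and Gstp2. Gstp2 held 10.3% (9.24 to 11.5) of the summed reads in the GFP negative library, 11.7% (11.5 to 11.9) in A and 11.0% (10.8 to 11.2) in B. The split was therefore nearly the same in each library.

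**Figure D2:**
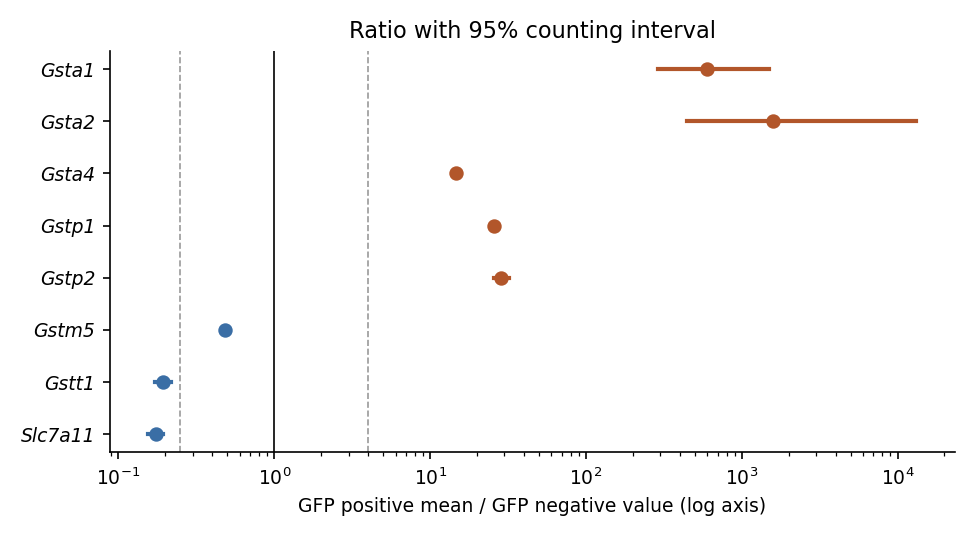
Ratio of the GFP positive mean to the GFP negative value for the 8 genes on a log axis, with the 95% exact binomial counting interval as a bar; the solid line is a ratio of 1 and dashed lines mark 4-fold. The 5 genes to the right lie beyond the 4-fold line with their whole interval, Gstt1 and Slc7a11 lie beyond it on the left, and Gstm5 lies between the lines.

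Gstm5 and Gstt1 were lower in GFP positive cells. Gstm5, of the mu class, stood at 4489 in the GFP negative library and at 2168 in A and 2165 in B, which is 2.07-fold lower (1.99 to 2.16). Centring on the median listed gene turned its log2 ratio to 0.26. It lies just inside the authors' limit on the log2 ratio. In GRCm38 the antisense RNA gene 4933431E20Rik overlaps Gstm5 on the opposite strand. That gene is also in the table, at 2241 in the GFP negative library against a mean of 959.6, and no source used states whether counting used strand, so reads from the overlap cannot be assigned. Gstm5 is the sole listed gene among 7 of the mu cluster on chromosome 3.

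Gstt1, a theta class transferase that acts on small halogenated compounds, stood at 941 in the GFP negative library, 164 in A and 201 in B. It was 5.16-fold lower in GFP positive cells (4.57 to 5.84). Its cluster relative on chromosome 10, Gstt2, went the other way: 805 in the GFP negative library against a mean of 2043, or 2.54-fold higher (2.35 to 2.74). The 2 other genes of that cluster, Gstt3 and Gstt4, are not in the table.

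Slc7a11 stood at 1256 in the GFP negative library, 196 in A and 238 in B, and was 5.78-fold lower in GFP positive cells (5.18 to 6.46). Its heavy chain partner Slc3a2 went in the opposite direction, at 5631 against a mean of 23378, which is 4.15-fold higher (4.04 to 4.27). Slc3a2 serves several other light chains as well, so its level is not a measure of the cystine exchanger alone. In bulk RNA of a sorted fraction, fewer cells that carry a transcript and less of it per cell cannot be told apart.

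The libraries A and B give the only view of spread within GFP positive cells, and whether they come from separate animals or sorts is not stated. Over the 8 genes the log2 ratio of A to B ran from -0.29 for Gstt1 to 0.00165 for Gstm5. Over the 3172 genes of the table with a mean of at least 100, the central 95% ran from -0.44 to 0.48. The authors' limit on the log2 ratio lies outside that range, so every listed gene differs between fractions by more than this spread by selection. The smallest difference among the 8 genes was that of Gstm5, with a log2 ratio of -1.05 on the log2(value + 1) scale used throughout. There is 1 GFP negative library, so the spread on that side is unknown.

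The limit for a large difference was 4-fold, on log2(value + 1), provided the higher fraction had a value of 5 or more. All 8 genes reached that value. Of them, 5 were 4-fold or more higher, where 18.1% of all listed genes were, and 2 were 4-fold or more lower, where 36.9% were. Since the genes were chosen for this contrast, nothing is read from these shares.

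Levels per kilobase of exon allow the genes to be set against each other. In GFP positive cells Gsta4 had a mean normalised count of 61770 per kb and Gstp1 44534 per kb, ranks 5 and 9 among the 4101 listed genes with a known exon length. Transcripts that differ little between fractions are not in the table, so ranks among all transcripts are unknown. Gstp2 followed with 7915, Gsta1 with 4588 and Gsta2 with 2834 per kb, then Gstm5 with 1695, Gstt1 with 119 and Slc7a11 with 15.6. In GFP negative cells the order was different: Gsta4 led with 4224 per kb, followed by Gstm5 with 3512, Gstp1 with 1721, Gstt1 with 616, Gstp2 with 276 and Slc7a11 with 90.2, and then Gsta1 with 7.65 and Gsta2 with 1.77.

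As shares of the summed level per kb of the 7 transferases, Gsta4 made up 40.8% in GFP negative and 50.03% in GFP positive cells. The share of Gstp1 was 16.6% in GFP negative and 36.1% in GFP positive cells. Gstm5 went from 33.9% to 1.37% and Gstt1 from 5.94% to 0.0966%. Gsta1, Gsta2 and Gstp2 were minor in both fractions, and stood at 3.72%, 2.30% and 6.41% in GFP positive cells. Among these 7, Gsta4 had the largest share in both fractions, followed by Gstm5 in GFP negative cells and by Gstp1 in GFP positive cells. Transferases outside the table have no value. Levels per kb and shares of the copies rest on the uncertain split of reads. If reads with several matches were dropped, both could be too low.

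**Figure D3:**
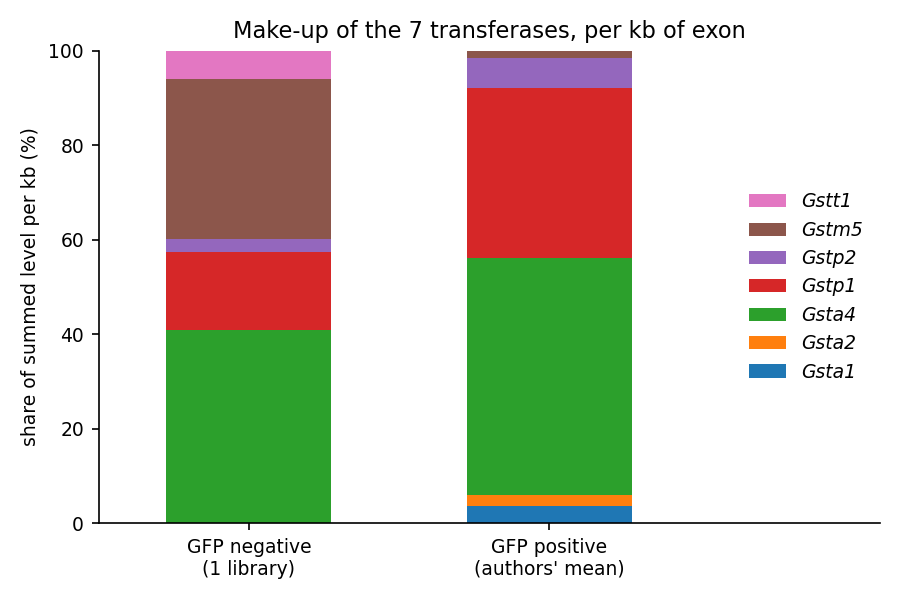
Share (%) of each of the 7 transferases in their summed level per kb of exon, in the GFP negative library (left) and in the authors' GFP positive mean (right). The Gstm5 band of 33.9% on the left shrinks to 1.37% on the right, where Gsta4 and Gstp1 fill most of the bar.

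Promoters of 7 of the 8 genes were matched by symbol in RefSeq, build GRCm38.p6, as the 250 bases before and 50 after the start. Those of Gsta1 and Gsta2 are shown because both genes had almost no GFP negative reads, and they are written 5′ to 3′ on the gene's strand. Capitals mark the longest run, 29 bases, that they and the Gm3776 promoter have in common.
Gsta1 (chr9:78230419-78230718, plus strand): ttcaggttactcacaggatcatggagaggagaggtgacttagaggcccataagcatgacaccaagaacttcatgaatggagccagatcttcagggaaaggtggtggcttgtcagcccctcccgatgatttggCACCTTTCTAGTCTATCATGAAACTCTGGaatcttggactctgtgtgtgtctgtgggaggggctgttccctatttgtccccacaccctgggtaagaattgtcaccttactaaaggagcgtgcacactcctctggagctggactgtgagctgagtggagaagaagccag
Gsta2 (chr9:78347096-78347395, minus strand): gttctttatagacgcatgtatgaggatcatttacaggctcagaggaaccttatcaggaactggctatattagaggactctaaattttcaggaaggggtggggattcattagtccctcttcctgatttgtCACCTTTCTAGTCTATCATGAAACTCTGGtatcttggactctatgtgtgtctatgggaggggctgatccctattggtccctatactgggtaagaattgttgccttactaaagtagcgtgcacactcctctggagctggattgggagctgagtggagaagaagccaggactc
The run starts 118 bases before the start in Gsta1 and 121 in Gsta2. Aligned, these promoters share 80.3% of their bases, and those of Gsta1 and Gm3776 share 98.95%.

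A search on both strands covered the core of the antioxidant response element bound by Nrf2, TGACNNNGC, the E-boxes CACGTG and CATGTG that Mitf and related factors bind, and the AP-1 site TGANTCA. Of all 32851 promoter windows 12.4%, 7.15%, 14.2% and 7.81% hold these letters. The windows of Gsta1, Gsta2 and Gstt1 held none of them. Those of Gstp1 and Gstp2 both held the AP-1 letters, 74 and 89 bases before the start, and Gstp2 also held CATGTG. The letters searched for the antioxidant response element core require C after TGA. Both AP-1 matches of the pi pair have G there and are followed by GC, so a core with G was not searched for. The window of Slc7a11 held CATGTG 74 bases before the start, and that of Gstm5 held the antioxidant response element core and the AP-1 letters. The promoters of the pi pair and of Slc7a11 are shown with the matches in capitals.
Gstp1 (chr19:4037863-4038162, minus strand): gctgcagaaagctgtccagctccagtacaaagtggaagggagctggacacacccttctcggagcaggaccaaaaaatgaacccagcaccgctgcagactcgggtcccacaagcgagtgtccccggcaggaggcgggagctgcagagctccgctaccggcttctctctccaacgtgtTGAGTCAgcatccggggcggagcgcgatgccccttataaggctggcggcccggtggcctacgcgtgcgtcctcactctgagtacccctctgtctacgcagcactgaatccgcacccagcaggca
Gstp2 (chr19:4042172-4042471, minus strand): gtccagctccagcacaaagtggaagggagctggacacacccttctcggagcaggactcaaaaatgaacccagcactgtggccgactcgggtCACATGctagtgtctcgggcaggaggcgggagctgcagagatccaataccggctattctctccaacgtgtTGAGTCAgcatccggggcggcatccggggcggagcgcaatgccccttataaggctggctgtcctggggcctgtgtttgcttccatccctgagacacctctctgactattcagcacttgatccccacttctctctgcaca
Slc7a11 (chr3:50443564-50443863, minus strand): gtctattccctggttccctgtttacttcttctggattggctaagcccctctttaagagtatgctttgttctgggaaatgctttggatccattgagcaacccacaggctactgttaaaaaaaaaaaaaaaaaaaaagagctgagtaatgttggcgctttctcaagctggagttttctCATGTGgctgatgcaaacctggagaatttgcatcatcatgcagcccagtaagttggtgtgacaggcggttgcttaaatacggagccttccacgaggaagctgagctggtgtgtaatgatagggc
The Gstp1 and Gstp2 windows share 86.2% of their aligned bases, with the AP-1 letters in both. A match describes these letters only, and its absence says nothing about distant sites.

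Of 26 names on the list of soluble transferases 9 were in the table. Of these, 7 are described above and were chosen with their values known, so no count or median is read from the list. The others were Gstt2 and Hpgds, both higher. For the lists that follow, the median log2 ratio over all 4197 genes was -1.34. Hpgds is the sigma class enzyme that makes prostaglandin D. Hpgds stood at 209.9 against a mean of 2519.8, or 12.01-fold higher (10.4 to 13.9). Of 6 membrane transferases and relatives, 2 were higher and 2 lower, with a median log2 ratio of -0.49 that centring turned to 0.83. Mgst1, the microsomal detoxifying enzyme, was 5.24-fold higher (4.87 to 5.64) and Mgst3 2.54-fold (2.27 to 2.84). Ptges, which makes prostaglandin E, was 8.53-fold lower (7.18 to 10.2), and Alox5ap, a helper of leukotriene synthesis, 5.10-fold lower (3.77 to 6.95).

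The listed genes of glutathione synthesis and turnover were lower in GFP positive cells, 4 of 4 among 16 names, with a median log2 ratio of -3.67. Among all genes listed, 56.4% were lower and the median was -1.34. Cbs and Cth, the enzymes that turn homocysteine into cysteine, were 26.0-fold (19.03 to 36.4) and 8.60-fold (7.27 to 10.2) lower. Ggt5 and Ggt7, of the family that cleaves glutathione outside the cell, were 19.5-fold (15.2 to 25.5) and 4.60-fold (3.72 to 5.72) lower. Gclc, Gclm and Gss, which carry out the synthesis itself, were not in the table and have no value here.

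Of 12 names for cystine and cysteine transport 7 were in the table, 3 higher and 4 lower, with a median log2 ratio of -2.28. Slc7a11, chosen with its value known, is among the 7, so no count or median is read from this list. Among all genes listed, 43.6% were higher and 56.4% lower. Besides Slc7a11 the lower ones were the glutamate transporters Slc1a2, at 25918 against a mean of 1259.5, and Slc1a3, at 7256 against 541, and the neutral amino acid transporter Slc1a4, at 1851 against 380.2. Besides Slc3a2 the higher ones were Ctns, the lysosomal cystine exporter, 2.26-fold (2.14 to 2.39), and Slc7a9. Slc7a9, a cystine transporter best known from the kidney, rested on 5 GFP negative reads against 148 in A and 134 in B, a ratio of 26.1 (11.1 to 81.1). Its kidney partner Slc3a1 and the melanosomal cysteine carrier Mfsd12 were not in the table.

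Reducing enzymes were few in the table. Of 15 names for glutathione reduction and peroxidases 2 were listed: Gpx2, a peroxidase known from the gut, was 5.21-fold higher (3.54 to 7.97), and Gpx7, a peroxidase of the endoplasmic reticulum, 2.40-fold lower (2.25 to 2.56; log2 ratio 0.0504 after centring), and their median log2 ratio was 0.54. Of 13 names of the thioredoxin system 3 were listed, with a median log2 ratio of 1.22. The peroxiredoxin Prdx1 stood at 12102 against a mean of 32066, and Srxn1, which restores oxidised peroxiredoxins, at 599 against 1397. Txnip, the thioredoxin inhibitor, stood at 12918 against 4808. None of 9 names for the export of glutathione conjugates was listed.

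Nrf2, the transcription factor that induces many of these genes under oxidative stress, is encoded by Nfe2l2, which stood at 1443 against a mean of 9119 and was 6.32-fold higher in GFP positive cells (5.98 to 6.68). Of 21 names of its regulators and targets 5 were listed, 3 higher and 2 lower, with a median log2 ratio of 1.07. Its partner Mafk stood at 519.97 against a mean of 1089.8, and Sod2, the mitochondrial superoxide dismutase, was 2.17-fold higher (2.05 to 2.30). The aldehyde-oxidising enzymes Aox1 and Aldh3a1 were 9.13-fold (8.12 to 10.3) and 10.3-fold (8.42 to 12.6) lower. Keap1, Nqo1 and Hmox1 were not in the table. Of 17 names from neighbouring detoxification steps 4 were listed, with a median log2 ratio of -2.09: Akr1b8, an aldo-keto reductase, was 10.8-fold higher (8.39 to 14.1), and Adh1, Aldh1a1 and Ahrr had log2 ratios of -2.62, -2.36 and -1.82. Over all lists 38 of 135 names were in the table, 19 higher and 19 lower, with a median of 0.00772. These include the 8 genes chosen with their values known, so nothing is read from that count or median.

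**Figure D4:**
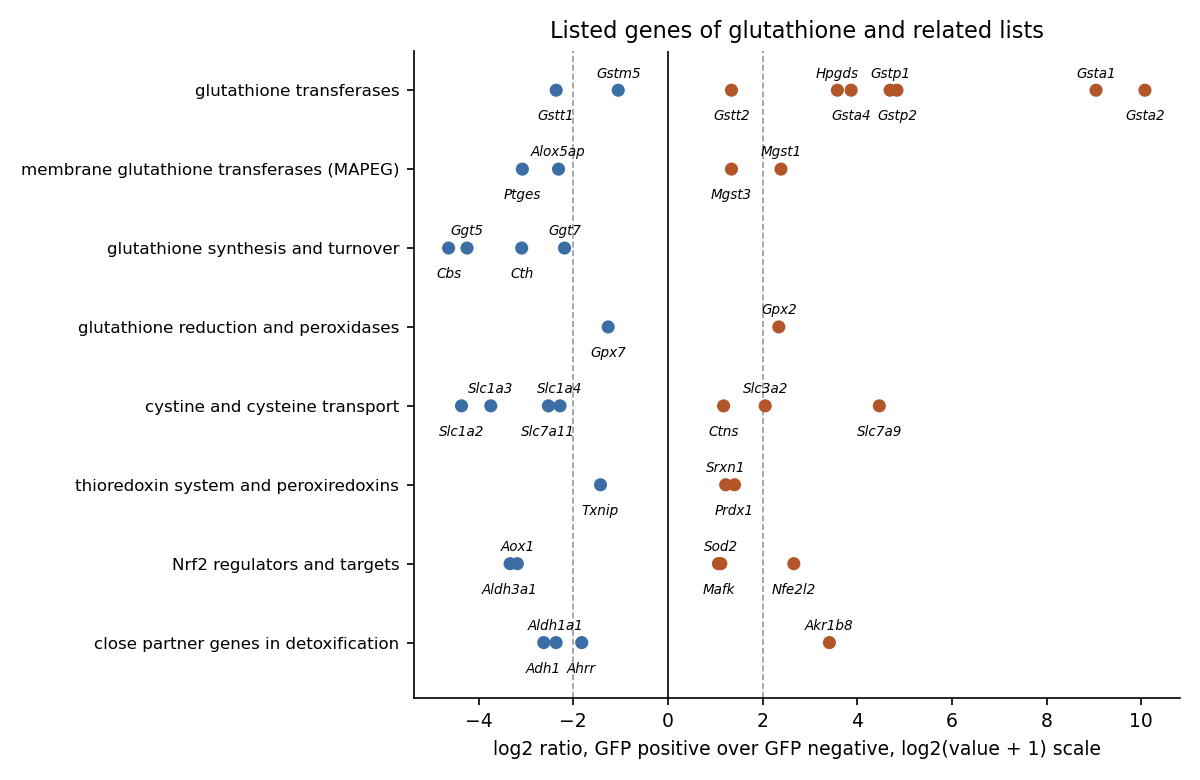
Log2 ratio of GFP positive over GFP negative on the log2(value + 1) scale for the 38 listed genes of the glutathione lists, 1 row per list, with dashed lines at 4-fold. The soluble transferases reach furthest to the right, with Gsta2 at 10.08 and Gsta1 at 9.04, and all 4 listed genes of synthesis and turnover lie on the left.

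Markers of other cell types moved with these genes, and their part in the differences was not tested. The value in the lower fraction was expressed as a percentage of that in the higher one. Over 8 pigment cell markers it ran from 0.057% to 32.7% with a median of 0.141%, and Gsta1 stood at 0.167% and Gsta2 at 0.0626%. These rest on 7 and 2 GFP negative reads, so the side of the median on which each gene lies is not resolved. Gstp2 at 3.48%, Gstp1 at 3.87% and Gsta4 at 6.84% lay above all 3 strial intermediate cell markers, which ran from 0.144% to 1.01%. The same genes lay within the range of the pigment cell markers through Kit alone, at 32.7%, since the next highest, Sox10, was at 1.95%. They lay within that of the 6 glial markers, 0.151% to 17.5%, through S100b alone, since the next highest, Erbb3, was at 2.36%. The summed level of the pigment markers was 5051 in GFP negative and 1986075 in GFP positive cells, and that of the 6 glial markers 4354 and 108947, so markers of both cell types moved with the higher genes.

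On the other side, Slc7a11 at 17.3% and Gstt1 at 19.4% kept more of their GFP negative value in GFP positive cells than the 6 fibrocyte markers, at 4.43% to 14.96%, and the 3 cartilage markers, at 4.76% to 6.06%. Gstm5 stood at 48.3%. The 4 macrophage markers ran from 6.05% to 26.7% and the 3 red blood cell markers from 1.52% to 2.48%. Summed levels in GFP negative and GFP positive cells were 770322 and 59207 for fibrocyte, 3665 and 677 for macrophage and 30857 and 2151 for the 2 pericyte markers. Of 4 marginal cell markers only Shroom3 was listed, at 17.3%, and of 4 endothelial markers only Emcn, at 5.97%. No listed marker was at 0, since every gene of the table has reads on both sides.

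**Figure D5:**
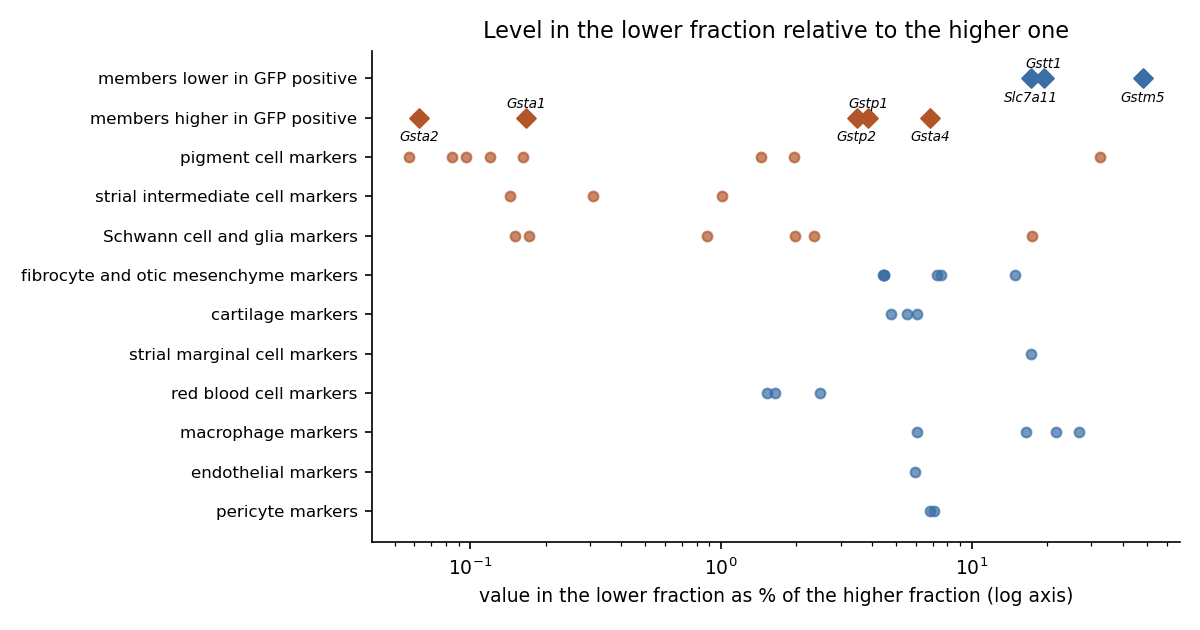
Value in the lower fraction as a percentage of that in the higher fraction on a log axis, for the 8 genes (diamonds, named) and for the marker lists (circles, 1 gene each); orange is higher in GFP positive cells and blue lower. Gsta1 and Gsta2 lie among the pigment cell markers at well under 1%, and Slc7a11 and Gstt1 lie to the right of all fibrocyte and cartilage markers.

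The genes nearest to each in the pair of levels were found by straight-line distance in log2(value + 1) over the 2 columns, a likeness over 2 values only. Predicted genes, those named Gm with a number or ending in Rik, were left out. Tyrp1, a melanin enzyme, was nearest to Gsta2, at a distance of 0.14, followed by Klhl30 and Gpr143. Gsta2 and Tyrp1 each had 2 GFP negative reads and Klhl30 and Gpr143 each had 3, so on that side the likeness rests on very few reads. Synpr, Cdh19 and Art5 were nearest to Gsta1, at 0.52 to 1.07. Lta4h, Nrp2 and Glul were nearest to Gsta4, Cdk2, Dkk3 and Lta4h to Gstp1, and Gpr155, Chsy3 and the metallothionein Mt1 to Gstp2. For the lower genes they were Fam114a1, Rps6 and Eid1 for Gstm5, Tox, Cnih2 and Ttc39c for Gstt1, and Begain, Slc38a4 and Adgrf5 for Slc7a11.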

How the data were processed

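RNA of 1 GFP positive and 1 GFP negative sample was sequenced from TruSeq libraries. Reads were aligned with STAR to mm9, per the submitters' processing notes; no source used here states the counting tool, strand setting, annotation or test. The deposited signal columns hold read counts per gene divided by size factors. All GFP negative values (100%) come out as whole reads within 1e-06 reads, and each GFP positive average is a whole-number sum of 2 library steps, within a relative tolerance of 1e-13. The size factors are 0.958 for GFP negative and 1.07 and 0.991 for A and B. The fold (ratio), log2, p-value and adjusted p-value columns are the authors' own, per the file headers.

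Ratios divide the deposited mean by the GFP negative value, and log2 ratios use a pseudocount of 1. Counting intervals are 95% Clopper-Pearson intervals of the recovered reads (SciPy 1.17.1). The reading of whole numbers was tested on simulated data. With 1 sample per group no test was made for the reported comparisons, and edgeR's test served as an alternative only. IDs were matched to GENCODE M21 (4064 of 4197), whose build, GRCm38, differs from mm9, so exon lengths, gene order and copies come from another annotation than the counts. Coding sequences were aligned with Biopython 1.88. The text names the 8 genes, every listed gene of the glutathione lists and the 3 genes nearest to each of the 8, predicted genes left out. Gm3776, 4933431E20Rik and unlisted genes were added after their values were seen. The genes, lists and markers were chosen with earlier results of these data known. Alternatives covered pseudocount, scaling, centring, single libraries, summed copies, fold and value limits and edgeR 4.0.16 on recovered reads.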

Additional observations from a re-analysis of the deposited data

How the results depend on the processing

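Of 62 recomputed log2 ratios of the 8 genes, 61 kept their direction and 48 stayed within the counting interval. The exception was Gstm5, which became 0.26 when centred on the median listed gene. That median, -1.31, is the shift given by centring; scaling to the listed total shifts ratios by -0.37. Centring also turned Gpx7 to 0.0504 and the median of the membrane transferases to 0.83, and scaling turned the median of all lists together to -0.36. The count of genes 4-fold or more higher was 5 in every setting run. The count 4-fold or more lower, 2 as reported, became 0 at a fold of 8 and 0 after centring, and Slc3a2 had a log2 ratio of 1.68 under scaling and 1.97 with library A alone, below 4-fold. Library A alone and library B alone gave -2.51 and -2.22 for Gstt1 and -2.67 and -2.39 for Slc7a11. The edgeR alternative was chosen after the values were seen; its quasi-likelihood test with Benjamini-Hochberg adjustment, run on the recovered reads, called 4197 of 4197 listed genes at 0.05, 1831 higher and 2366 lower. The table had already been selected on these libraries. No paired analysis was possible because the labels carry no replicate numbers and give 1 sample per group. Depth limits the ratios of Gsta1 and Gsta2, which rest on 7 and 2 GFP negative reads.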
